A study of Mus musculus with 12 samples.

Results

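Sox9, Sox4, Onecut1, Onecut2, Tbx3, Klf6 and Ehf are transcription factors tied to the formation or identity of bile duct epithelium, and they were followed here in mouse liver with and without the transcriptional coactivator Yap1. They were chosen by name, and all 7 were found among the 25676 genes of the deposited expression table. Bulk RNA sequencing was done on whole livers of 12 C57BL/6 mice aged 3 to 4 months. The mice formed 4 groups of 3, which were WT males, WT females, KO males and KO females, and each library carried its own animal tag in the labels. KO mice are labelled Foxa3-Cre YAP1 KO, and both genotypes share the C57BL/6 background. The labels used here give no Cre or floxed allele for the WT mice. Foxa3-Cre is active in the embryonic endoderm from which hepatocytes and bile duct cells descend, which makes these epithelial cells the target of the deletion. The level of Yap1 left in the KO livers is not assigned to a cell type in bulk data.

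Hepatocytes and cholangiocytes, the epithelial cells that line bile ducts, arise from a common fetal progenitor, the hepatoblast. Notch and TGF-beta signals near the portal vein direct some hepatoblasts to the duct fate, and SOX9 marks them early. SOX4 acts with SOX9 in shaping the duct, ONECUT1 and ONECUT2 (also called HNF6 and OC2) restrain and place the duct program, TBX3 favours hepatocyte over duct fate, KLF6 is induced early in liver injury, and EHF belongs to the ETS factors of epithelia. Yap1 is the effector of the Hippo pathway, and the protein binds DNA through TEAD factors.

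The targeted gene was measured first as a check of the genotype labels. Yap1 (ENSMUSG00000053110, chromosome 9, 7931999 to 8004596, minus strand of GRCm38) was at 27.5, 34.9 and 34.0 TPM (a transcript level scaled by gene length and by library total) in the WT males and at 23.0, 30.03 and 27.8 TPM in the WT females. The KO males had 1.39, 0.994 and 1.80 TPM and the KO females 3.11, 2.44 and 2.41 TPM, so every KO liver was below every WT liver. The difference was -3.36 on the log2(TPM + 1) scale, with an exact two-sided permutation p of 0.005 within sex, the smallest that the 400 arrangements allow. The TPM values resolved into whole reads for 99.98% of the 17332 genes above 0, at a tolerance of 0.01 reads, and gave between 19658898 and 27836153 reads per library.

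The libraries also differed in ways that the 4 groups do not describe. Dbp, an output gene of the daily clock that falls and rises with the time of day, was at 0.745 and 1.15 TPM in WT male replicates 1 and 2 and between 175 and 213 TPM in the other 4 WT livers. In the KO livers Dbp was at 1.91, 46.0 and 1.31 TPM in the males and at 10.6, 0.960 and 33.4 TPM in the females. Arntl, which encodes the clock activator BMAL1 and runs opposite to Dbp, was at 15.5 and 14.2 TPM in WT male replicates 1 and 2, between 0.439 and 1.03 TPM in the other 4 WT livers and between 5.41 and 23.6 TPM in the 6 KO livers. The collection times are not given in the sources used here. Dbp and Arntl therefore separated the genotypes in the females and overlapped between them in the males. They come from 12 clock genes looked at, and in the females Nr1d1, Per1 and Cry1 overlapped between the genotypes. Over both sexes Dbp differed by -2.41 on the log2(TPM + 1) scale (limma adjusted p 0.117), Arntl by 2.03 (0.0117), Per1 by 0.06 (0.888) and Cry1 by 0.008 (0.987). Clock state below means the level of Dbp, and its values are given beside the results that follow it. Among all 12278 genes tested, with a mean of at least 0.5 TPM, the median KO minus WT difference was 0.35 on the log2(TPM + 1) scale, and it was -0.03 after the libraries were rescaled by the median of their gene ratios. Differences are given on both scales where the scale decides the call.

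Of the 7 factors, 6 passed the filter on low values and Ehf did not. Sox9, Sox4 and Klf6 rose in the KO livers and no factor fell at a limma adjusted p under 0.05 over both sexes, where 50.1% of all genes tested were called higher and 4.82% lower. After rescaling, Klf6 and Sox9 were still called higher, and Onecut1, Onecut2 and Tbx3 were called lower, against 21.3% and 18.0% of all genes. As deposited, 3 of 6 factors were thus called higher, close to the share of all genes, and the median of the 6 differences was 0.31, compared with 0.35 for all genes. The 7 factors did not move as 1 group: Klf6 and Sox9 were called higher on both scales over both sexes, Sox4 and Ehf were higher in the mean on both scales but their calls depended on scale or single livers, and the direction or the call of Onecut1, Onecut2 and Tbx3 depended on sex, scale or single livers. Where the genotypes are said below to separate within 1 sex, the share of all genes that did so was not counted.

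**Figure D1:**
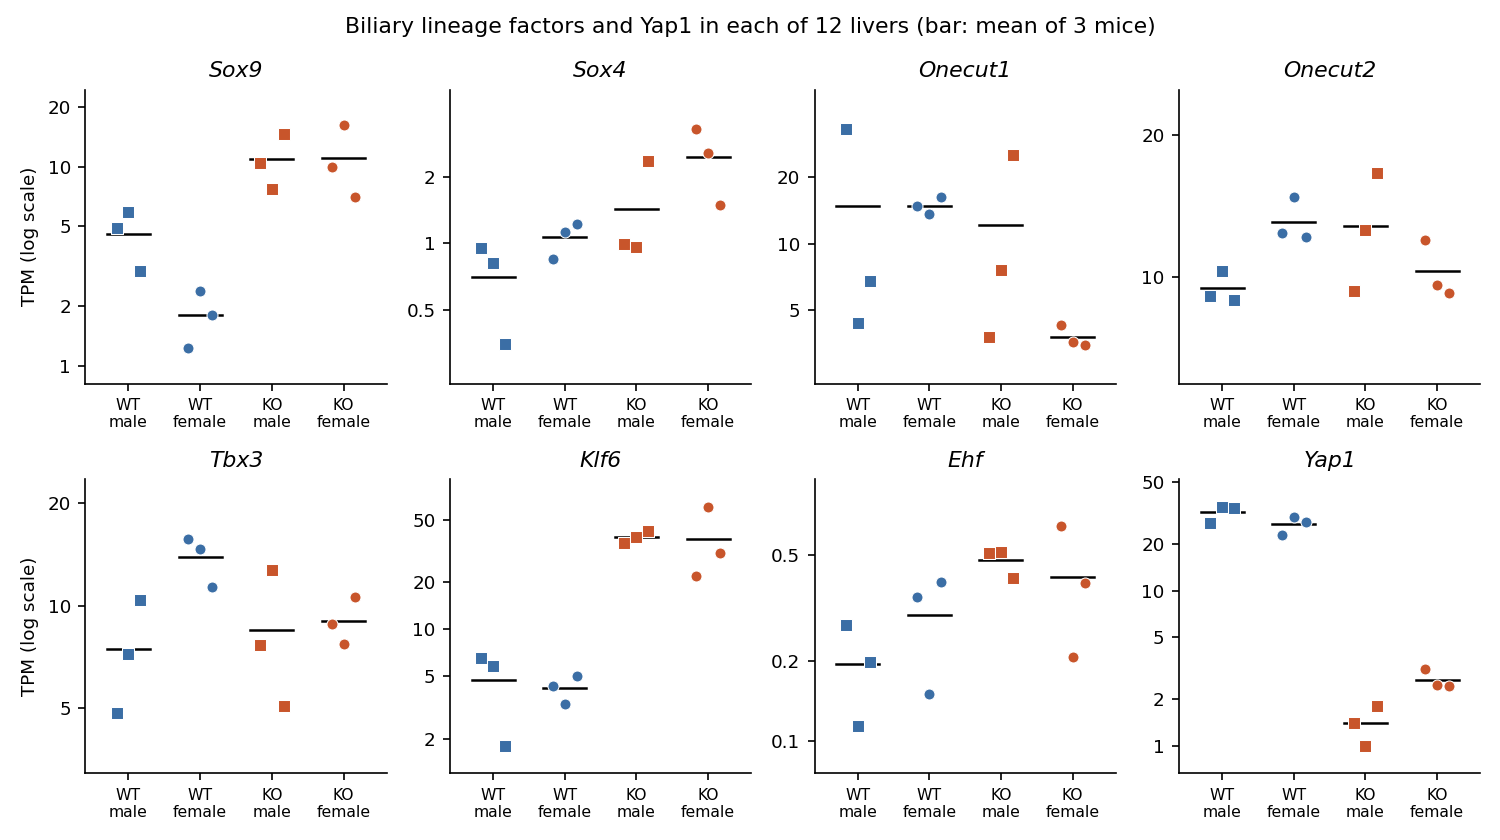
TPM of each factor and of Yap1 on log axes, with 1 point per liver (squares, males; circles, females; blue, WT; orange, KO) and a bar at the mean of 3 mice. Klf6 and Sox9 separate the genotypes in every liver, Onecut1 scatters from 3.79 to 33.2 TPM among the males of both genotypes, and Ehf reaches at most 0.640 TPM.

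Sox9 (ENSMUSG00000000567, chromosome 11, 112782224 to 112787760, plus strand) encodes the SRY-related factor that marks the first duct precursors and, in the adult, cholangiocytes and the hepatocytes next to the portal vein. It was at 4.92, 5.89 and 3.00 TPM in WT males, 1.22, 2.37 and 1.79 in WT females, 10.4, 7.72 and 14.5 in KO males and 9.95, 16.2 and 6.998 in KO females. Every KO liver was above every WT liver, a separation in that direction that 28.7% of all genes tested showed, and both KO groups had almost the same mean, 10.9 ± 3.41 TPM (SD, n = 3) in males and 11.1 ± 4.71 TPM in females. The WT means were 4.60 ± 1.47 TPM in males and 1.79 ± 0.576 TPM in females. The ratio of means was 3.43 over both sexes, 2.36 in males and 6.17 in females.

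The difference in Sox9 over both sexes was 1.57 ± 0.25 (SE) on the log2(TPM + 1) scale with a limma adjusted p of 0.000158, and 1.18 ± 0.27 with 0.00396 after rescaling. In females it was 2.06 (adjusted p 0.000261) and 1.78 (0.00126) after rescaling. In males it was 1.08 (adjusted p 0.0127) and 0.58 (0.207) after rescaling, when the values overlapped. Without KO male replicate 3 the adjusted p in males was 0.0595 at a difference of 0.87. The larger difference in females did not pass as an interaction of genotype and sex (-0.98, adjusted p 0.537), nor did the higher level in WT males than in WT females (0.99, adjusted p 0.0773), although that adjusted p was 0.0293 without WT male replicate 3. The clock state ran alongside: the WT livers highest in Sox9 were the 2 with Dbp near 1 TPM, and the KO livers with Dbp under 2 TPM were the 3 highest of their genotype. With the log2 level of Dbp as a covariate the KO minus WT difference was 1.19 (adjusted p 0.000111), and 0.76 (0.00533) on rescaled values.

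Sox4 (ENSMUSG00000076431, chromosome 13, 28948919 to 28953713, minus strand) encodes a second SRY-related factor that works beside SOX9 in duct formation. It was low, at 0.951, 0.816 and 0.351 TPM in WT males, 0.849, 1.12 and 1.23 in WT females, 0.998, 0.960 and 2.35 in KO males and 3.28, 2.55 and 1.48 in KO females. Within each sex every KO liver exceeded every WT liver, while over both sexes the 2 lowest KO males lay within the range of the WT females. In males the gap was only between 0.951 and 0.960 TPM, and after rescaling the genotypes overlapped in both sexes. These levels correspond to 22 to 83 reads in the WT and 43 to 181 reads in the KO libraries. Sox4 rose by 0.59 ± 0.18 (SE) on the log2(TPM + 1) scale (limma adjusted p 0.0114), a 2.19-fold higher mean. The call was lost after rescaling (0.34, adjusted p 0.113) and with Dbp as a covariate (0.40, adjusted p 0.0570). In males the difference was 0.48 (adjusted p 0.130), and in females 0.70 (adjusted p 0.0472), which rescaling moved to 0.49 (0.144). The female call was also lost without any 1 of 5 females, with limma adjusted p from 0.0741 to 0.167, and not without KO female replicate 3 (0.0206). A long noncoding gene on the opposite strand, Gm26735, overlaps 2753 bases of Sox4, and the strandedness of the libraries is not given in the sources used here.

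Klf6 (ENSMUSG00000000078, chromosome 13, 5861482 to 5870394, plus strand) encodes a zinc finger factor of the Kruppel-like family that responds early to tissue injury. It was at 6.61, 5.83 and 1.80 TPM in WT males and 4.36, 3.32 and 4.996 in WT females. KO males had 35.8, 39.1 and 42.4 TPM and KO females 22.1, 60.9 and 31.0 TPM. Even the lowest KO liver was above the highest WT liver, on the deposited and on the rescaled values, and the KO males lay within 35.8 to 42.4 TPM while the KO females spread more widely. The mean was 8.60-fold higher over both sexes and 8.24-fold in males, and in females it was 38.0 TPM in KO against 4.22 TPM in WT livers. The difference was 2.86 ± 0.26 (SE) on the log2(TPM + 1) scale with a limma adjusted p of 1.34e-06, and 2.45 ± 0.29 with 2.24e-05 after rescaling. Males (2.93, adjusted p 7.37e-05) and females (2.79, 0.000139) gave differences of similar size, and the interaction was 0.14 ± 0.53 (SE, adjusted p 0.948). With Dbp as a covariate the difference was 2.55 (adjusted p 2.72e-06). The 2 WT males with Dbp near 1 TPM had 6.61 and 5.83 TPM of Klf6, whereas the 3 KO livers with Dbp under 2 TPM had 35.8, 42.4 and 60.9. The reads behind these values were 101 to 311 in the WT and 1091 to 2522 in the KO libraries.

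The RefSeq promoter table (GRCm38.p6) held 3 of the factors, Klf6, Sox4 and Onecut1, and the 250 bases before each start were searched. Those of Klf6, which differed most between the genotypes, and of Sox4, the only one with motif matches, are shown. The motifs searched on both strands were GGAATG (TEAD), TGGGAA (RBPJ, the DNA-binding partner of Notch) and TGANTCA (AP-1). The promoters of Klf6, at chr13:5861239-5861488 on the plus strand, and of Sox4, at chr13:28953700-28953949 on the minus strand, are printed 5′ to 3′ with motif matches in capitals.
Klf6: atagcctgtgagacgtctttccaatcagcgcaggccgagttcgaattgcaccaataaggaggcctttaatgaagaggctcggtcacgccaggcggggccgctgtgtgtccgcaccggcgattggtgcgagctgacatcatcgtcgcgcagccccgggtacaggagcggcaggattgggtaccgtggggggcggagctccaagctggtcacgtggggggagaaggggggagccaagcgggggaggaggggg
Sox4: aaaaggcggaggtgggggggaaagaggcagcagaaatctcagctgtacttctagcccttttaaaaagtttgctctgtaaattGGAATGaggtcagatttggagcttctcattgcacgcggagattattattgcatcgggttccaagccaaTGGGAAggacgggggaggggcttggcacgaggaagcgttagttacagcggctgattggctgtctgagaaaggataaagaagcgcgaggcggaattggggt
The Sox4 promoter held 1 TEAD match that began 168 bases before the start and 1 RBPJ match that began 100 bases before it, and no AP-1 match. Those of Klf6 and Onecut1 held none of the 3 motifs in this window. Of all 32851 promoters of this length, 12.6% held the TEAD letters, 21.6% the RBPJ letters and 6.75% the AP-1 letters. The GC content was 64.8% in Klf6, 50.8% in Sox4 and 71.6% in Onecut1, against a median of 52.4%.

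Onecut1 (ENSMUSG00000043013, chromosome 9, 74861921 to 74891781, plus strand) encodes HNF6, a cut-homeodomain factor of hepatocytes and duct precursors. It was at 33.2, 4.39 and 6.81 TPM in WT males, 14.8, 13.6 and 16.3 in WT females, 3.79, 7.58 and 25.2 in KO males and 4.29, 3.59 and 3.50 in KO females. The females separated the genotypes, with a WT mean of 14.9 ± 1.38 TPM (SD, n = 3) and a KO mean of 3.79 ± 0.430 TPM, a ratio of 3.92. The males overlapped, with 1 very high liver in each genotype. The SD within groups was 0.94 on the log2(TPM + 1) scale, larger than in 99.4% of the genes tested, for which the median was 0.25.

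Over both sexes Onecut1 did not pass as deposited (-0.93 ± 0.48, SE, limma adjusted p 0.115) and passed after rescaling (-1.33, adjusted p 0.0324), a call that ended when Dbp was added as a covariate (-1.40, adjusted p 0.0530). On the deposited values it passed without WT male replicate 2 (-1.26, adjusted p 0.0285) or without KO male replicate 3 (-1.32, adjusted p 0.0174). On the rescaled values it passed in 4 of the 12 fits that each left out 1 liver. In females the difference was -1.73 ± 0.63 with an adjusted p of 0.0491, next to the threshold, and -2.01 with 0.0247 after rescaling. The males gave -0.14 (limma adjusted p 0.867), a sign that rested on single livers. It was 0.66 without WT male replicate 1 and -0.67 without WT male replicate 2. A fit of the female livers alone gave the same female difference, -1.73, with a limma adjusted p of 8.57e-05. The call was lost with a covariate for WT female replicate 3 and KO female replicate 1, whose animal tags carry the lowest numbers (adjusted p 0.0606), and without any 1 of the 6 females, with adjusted p from 0.0847 to 0.114. The interaction of genotype and sex was 1.59 ± 0.88 with an adjusted p of 0.627. The 2 WT males with Dbp near 1 TPM had 33.2 and 4.39 TPM of Onecut1, and the part of clock state in the spread of the males was not tested. In the females, all 3 WT livers had Dbp of at least 175 TPM and all 3 KO livers at most 33.4 TPM, so clock state and genotype cannot be told apart there. The noncoding gene Gm20649 lies on the same strand over 29556 bases of the locus.

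Onecut2 (ENSMUSG00000045991, 64340020 to 64400987 on the plus strand of chromosome 18) encodes the close relative that shares many binding sites with HNF6. It was at 9.13, 10.3 and 8.92 TPM in WT males, 12.4, 14.8 and 12.2 in WT females, 9.34, 12.6 and 16.6 in KO males and 11.996, 9.62 and 9.26 in KO females. In females every KO liver was below every WT liver, and in males the 2 highest values were both KO. The difference was 0.03 ± 0.16 (SE) over both sexes on the log2(TPM + 1) scale (limma adjusted p 0.903), 0.37 in males (0.122) and -0.32 in females (0.214). Rescaling turned the direction over both sexes to -0.39 (adjusted p 0.0270) and gave -0.64 in females (0.0111), so that a fall of Onecut2 was called on the rescaled values alone. With Dbp as a covariate on the rescaled values it was -0.38 (adjusted p 0.0628) over both sexes. The rescaled call held in 6 of the 12 fits that each left out 1 liver. Without KO male replicate 1 the males passed in the other direction on the deposited scale (0.57, adjusted p 0.0254). The interaction was 0.70 ± 0.27 with an adjusted p of 0.464.

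Tbx3 (ENSMUSG00000018604, chromosome 5, 119670669 to 119684724, plus strand) encodes a T-box repressor that keeps hepatoblasts on the hepatocyte path. It was at 4.83, 7.22 and 10.4 TPM in WT males, 15.7, 14.7 and 11.4 in WT females, 7.66, 12.7 and 5.09 in KO males and 8.83, 7.71 and 10.6 in KO females. Females separated, with all 3 KO livers below all 3 WT livers, a split whose share over all genes was not counted. Males overlapped. The difference was -0.22 ± 0.22 (SE) over both sexes (limma adjusted p 0.425), -0.57 in females (0.156) and 0.13 in males (0.720). It was -0.62 (adjusted p 0.0422) over both sexes and -0.88 (0.0533) in females after rescaling, and the call over both sexes held in 2 of the 12 rescaled fits that each left out 1 liver. A fit of the female livers alone, as deposited, called the fall (-0.57, limma adjusted p 0.0323).

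Tbx3 tended to be higher in livers with higher Dbp in both genotypes, though the livers with middle and high Dbp overlapped. The 5 livers with Dbp under 2 TPM had Tbx3 between 4.83 and 7.71 TPM, the 3 KO livers with Dbp from 10.6 to 46.0 TPM had 8.83, 10.6 and 12.7 TPM, and the 4 WT livers with Dbp of at least 175 TPM had 10.4 to 15.7 TPM. With Dbp as a covariate the genotype difference was 0.13 (adjusted p 0.487) on the deposited and -0.32 (0.188) on the rescaled values. All WT females had more Dbp than all KO females, so this fit cannot tell clock state and genotype apart there. The part of clock state in the Tbx3 level was not tested. The antisense gene Tbx3os1 overlaps the first 697 bases of Tbx3.

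**Figure D2:**
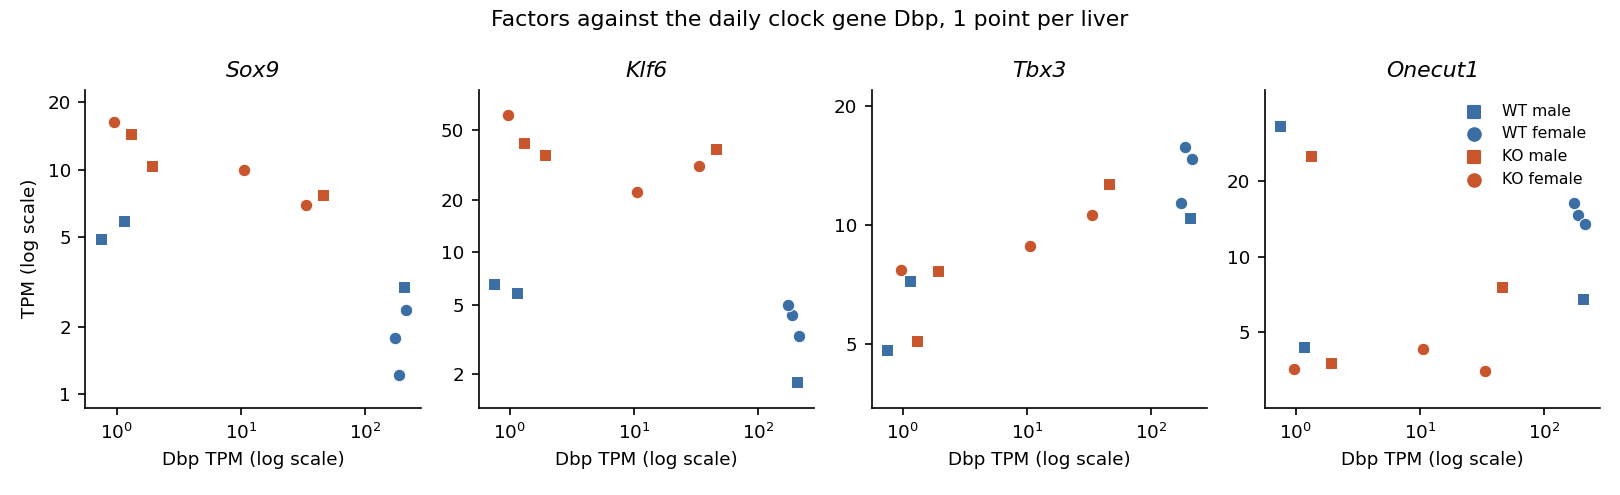
TPM of Sox9, Klf6, Tbx3 and Onecut1 against TPM of the clock gene Dbp on log axes, 1 point per liver (squares, males; circles, females; blue, WT; orange, KO). WT male replicates 1 and 2 sit at the left beside 3 KO livers, where Klf6 and Sox9 are higher in KO, whereas Tbx3 tends to be higher at higher Dbp in both genotypes.

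Ehf (ENSMUSG00000012350, chromosome 2, 103263433 to 103303278, minus strand) encodes an ETS factor of ductal and glandular epithelia. It was under the filter, with 7 to 37 reads per library. WT males had 0.272, 0.113 and 0.198 TPM, WT females 0.347, 0.150 and 0.395, KO males 0.507, 0.511 and 0.410, and KO females 0.640, 0.206 and 0.391. The KO males were above all WT livers and the KO females were not. The difference within sex was 0.21 on the log2(TPM + 1) scale with an exact two-sided permutation p of 0.04, and 0.10 with 0.215 after rescaling. In 9 of the 12 tests that left out 1 liver the exact permutation p was 0.05 or more, up to 0.115.

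By level per length, the order in WT livers was Onecut1 (mean 14.8 TPM), Onecut2 (11.3), Tbx3 (10.7), Klf6 (4.48), Sox9 (3.20), Sox4 (0.886) and Ehf (0.246). In KO livers Klf6 stood first (38.6 TPM), before Onecut2 (11.6), Sox9 (10.96), Tbx3 (8.77) and Onecut1 (7.99), with Sox4 (1.94) and Ehf (0.444) last. The KO mean of Onecut1 was raised by KO male replicate 3, and its KO median was 4.04 TPM. The ranges of the first 3 overlapped in WT livers, as did those of Onecut2, Sox9 and Tbx3 in KO livers, while the lowest KO value of Klf6, 22.1 TPM, was above the highest KO value of every other factor except Onecut1, at 25.2 TPM.

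**Figure D3:**
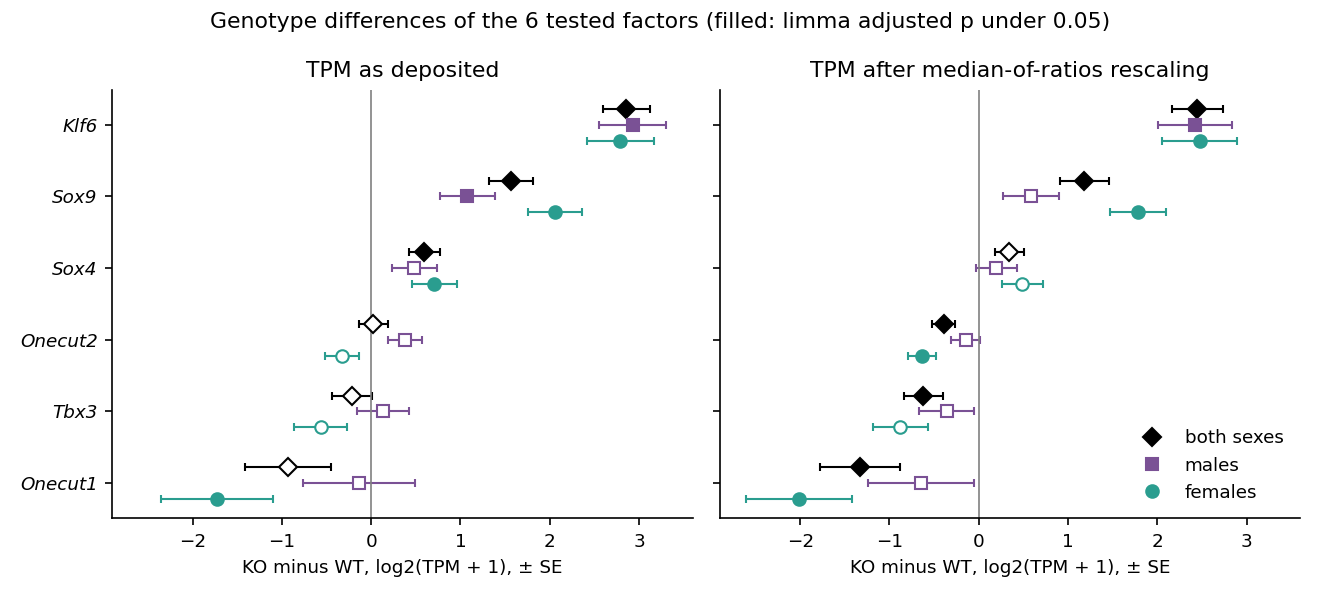
KO minus WT differences on the log2(TPM + 1) scale with SE for the 6 factors tested, over both sexes and in each sex, as deposited (left) and after rescaling (right), with filled symbols for a limma adjusted p under 0.05. Klf6 and Sox9 stay to the right of 0 in both panels, and rescaling moves Onecut2 from 0.03 to -0.39.

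Within each sex the counts of called factors were small. In males Sox9 and Klf6 were called higher and none lower, where 43.3% of all genes were called higher and 2.81% lower. After rescaling Klf6 alone was called higher in males and none lower (14.1% and 9.84% of all genes). In females Sox9, Sox4 and Klf6 were called higher and Onecut1 lower (29.1% and 4.68% of all genes), and after rescaling Sox9 and Klf6 higher and Onecut1 and Onecut2 lower (15.4% and 10.6%). No factor passed the interaction of genotype and sex, for which 0.912% of all genes were called. None differed between the sexes within WT (5.74% of all genes) or within KO (0.0814%). Before adjustment the limma p of the interaction was 0.0410 for Sox9 and 0.0226 for Onecut2, with n = 3 per group and sex.

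In the authors' deposited table of their own comparison, which was made from the same libraries, Klf6 had a log2 fold change of 2.17 with a false discovery rate of 0 and Sox9 one of 0.95 with a false discovery rate of 0.01. That authors' deposited table lists Onecut1 at -1.82 with a false discovery rate of 0, Sox4 at 0.76 (false discovery rate 0.12), Onecut2 at -0.40 (0.07), Tbx3 at -0.38 (0.33) and Ehf at 0.63 (0.38). The rates carry few decimals, so a 0 may be a rounded value. The authors' fold changes are another measure than the log2(TPM + 1) differences above, where Onecut1 as deposited was at -0.93 over both sexes (limma adjusted p 0.115).

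Of a list of 25 other biliary and duct transcription factors, 17 were tested, and 9 of them rose and none fell (50.1% and 4.82% of all genes), with a median difference of 0.47 against 0.35 for all genes. After rescaling 6 rose and none fell (21.3% and 18.0% of all genes), and the median was 0.09 against -0.03. The one far outside the rest was Elf3, an epithelial ETS factor related to Ehf, which rose from 0.578 to 49.8 TPM in the mean, by 4.93 on the log2(TPM + 1) scale (limma adjusted p 3.45e-09), with KO values from 30.04 to 88.0 TPM. Id3, a helix-loop-helix inhibitor, rose by 1.37 and Creb3l1, a membrane-bound factor of secretory and matrix-producing cells, by 1.28. Hes1, a target of Notch, was at 0.99 (adjusted p 0.00186) and at 0.58 (0.0604) after rescaling.

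Of 19 tested genes in a list of hepatocyte transcription factors, 5 rose and 3 fell (50.1% and 4.82% of all genes), with a median of 0.09 against 0.35 for all genes. After rescaling none rose and 9 fell (21.3% and 18.0% of all genes), with a median of -0.36 against -0.03. Foxa3, whose promoter drives the Cre, was higher by 0.88, Nr1i2 (the xenobiotic receptor PXR) by 0.65 and Cebpb by 0.59. None of these 3 passed after rescaling. Ppara, the fatty acid receptor, fell by 1.27, Hlf by 0.84 and Nfix by 0.52, and these 3 passed on both scales. The list holds Dbp itself (-0.43 in males and -4.39 in females) and its relative Hlf, another output of the daily clock (-0.42 and -1.26), and in the females clock state and genotype cannot be told apart.

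Of 20 tested Notch and TGF-beta genes that act on biliary fate, 13 rose and none fell (50.1% and 4.82% of all genes), with a median of 0.52 against 0.35 for all genes. After rescaling 9 rose and 3 fell (21.3% and 18.0%), with a median of 0.12 against -0.03. Tgfbr2, the type II TGF-beta receptor, rose by 1.93, Fst, which binds activin, by 1.56, and the ligand Tgfb1 by 1.30. The receptor Notch2 rose by 0.84 (adjusted p 0.000615), and the ligand Jag1 had a difference of 0.15 (0.408).

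**Figure D4:**
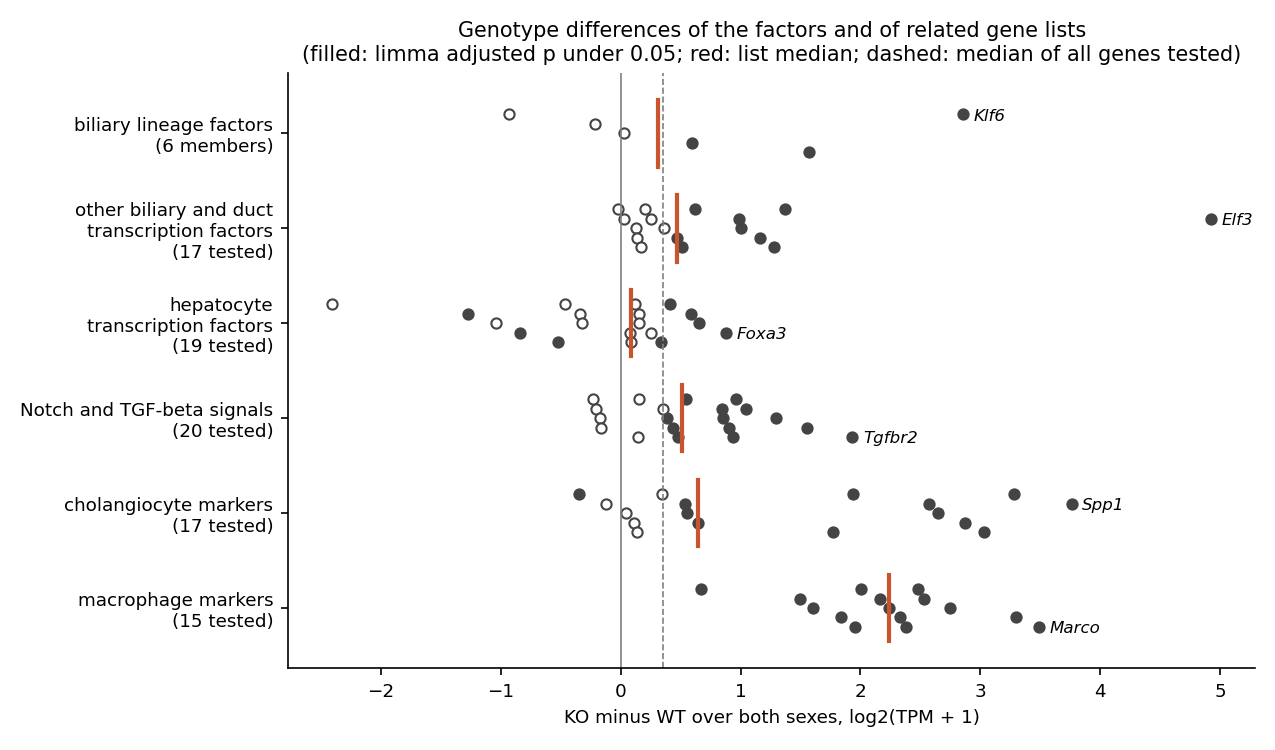
KO minus WT differences over both sexes on the log2(TPM + 1) scale, 1 point per gene tested, for the 6 factors and 5 gene lists (filled, limma adjusted p under 0.05; red, list median; dashed, median of all genes tested at 0.35). The 6 factors spread from -0.93 to 2.86, Elf3 stands apart at 4.93, and all 15 macrophage markers lie to the right of 0.

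The relatives of the factors were described by family, beside 50.1% higher and 4.82% lower of all genes as deposited and 21.3% and 18.0% after rescaling. Of 7 tested Sox relatives 1 rose, Sox13 (0.90), and none fell, whereas after rescaling 1 rose and 3 fell. Among 12 tested Klf relatives Klf4 (1.19), Klf16 (1.10) and Klf2 (0.89) rose with Klf7 (0.63), and Klf15 fell by 0.36. None of these matched the 2.86 of Klf6, and the rescaled counts were 3 higher and 3 lower. Both tested Tbx relatives, Tbx20 (0.79) and Tbx2 (0.46), rose, and Tbx2 was not called after rescaling. Onecut3 was listed at 0 TPM in all 12 livers.

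Whole liver holds several cell types, and in bulk samples fewer cells of a type and less RNA per cell cannot be told apart. Of 17 tested cholangiocyte markers 11 rose and 1 fell (50.1% and 4.82% of all genes), and the summed level of the list's 23 genes ran from 469 to 778 TPM in WT and from 3267 to 4832 TPM in KO livers, most of it Krt8 and Krt18, keratins that hepatocytes make too, so the sum is not a level of cholangiocytes alone. Spp1 (osteopontin) rose by 3.76, Cldn7 (a tight junction claudin) by 3.28 and Prom1 by 3.03. Of markers of mature ducts picked after their values were seen, Krt19 was at 1.38 TPM in WT and 1.24 TPM in KO livers (-0.12, limma adjusted p 0.707), Krt7 at 0.229 and 0.255 TPM, and Cftr and Sctr under 0.03 TPM in the mean. Epcam fell by 0.35 (adjusted p 0.0312), from 0.940 to 0.515 TPM. Other markers of the list, also picked after their values were seen, were called higher on both scales. These were Tspan8 (2.65, and 2.33 after rescaling), Bicc1 (1.94 and 1.62) and Slc10a2 (1.77 and 1.35). After rescaling 9 of the list rose and 1 fell (21.3% and 18.0% of all genes). The part of duct cells in the higher Sox9 and Klf6 levels was not tested.

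Markers of other cell types were counted in the same way. Of all genes, 50.1% were called higher and 4.82% lower as deposited, and 21.3% and 18.0% after rescaling. All 15 macrophage markers rose, 14 after rescaling, and their sum ran from 143 to 523 TPM in WT and from 942 to 1896 TPM in KO livers. Of 15 stellate cell and fibroblast markers 10 rose and 1 fell (sums of 117 to 343 and 237 to 591 TPM), with Col1a1 higher by 4.01, and after rescaling 6 rose and 3 fell. Endothelial markers gave 3 higher and 2 lower of 15, and 1 and 2 after rescaling. Neutrophil markers gave 3 higher of 5, lymphocyte markers 2 of 8 and mesothelial markers 3 of 6, and after rescaling 1, 1 and 2. Hepatocyte markers gave 2 higher and 5 lower of 15, and 1 and 7 after rescaling. Klf6 and Sox9 are also made outside the biliary lineage, and the part of these cell types in their higher levels was not tested.

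The genes whose pattern over the 12 livers was most like each factor were found by the root mean square difference of centred log2(TPM + 1) values. Sox9 was closest to Cgn, which encodes the tight junction protein cingulin (0.27), Desi2 (0.28) and Dusp8 (0.29), against its own root mean square of 0.93 about its mean. Klf6 was closest to Tnfaip3, which encodes the NF-kappaB inhibitor A20 (0.35), Spire2 (0.38) and Ccdc120 (0.39), against 1.50. Sox4 was closest to Fam171b, Ddit4l and Afap1 (0.15 to 0.19, against 0.45), and Onecut2 to Foxo4, Armc1 and Jmjd4 (0.13 to 0.14, against 0.26). Tbx3 was closest to Coq10a (0.18), Ang (0.22) and Hsf4 (0.23), against 0.47. No gene came near Onecut1: the closest, Gm28035, differed by 0.71 where Onecut1 itself spread by 1.00. No factor was among the 3 nearest genes of another.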

How the data were processed

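The deposited table holds TPM values that the authors made from RNA sequencing of 12 livers, per the file headers. The submitters' processing notes name the build GRCm38, and the aligner is not given in the sources used here. The authors' deposited table also holds their own fold changes. Groups came from the labels. Genes with a mean of at least 0.5 TPM (12278) were tested with limma 3.58.1 in R 4.3.3 on log2(TPM + 1), a scale that understates changes of low genes, with an intensity trend, Benjamini-Hochberg adjustment and a threshold of 0.05. Genotype was tested with sex as a covariate, and the other comparisons came from a model of 4 group means. The median-of-ratios rescaling divides each library by the median of its gene ratios, and the factors ran from 0.728 to 0.947 in WT and from 1.09 to 1.33 in KO libraries. Yap1 and Ehf were tested by exact permutation within sex. The fit was tested on simulated data.

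The members and gene lists were chosen with earlier results of these data known, and the clock genes and the fits with Dbp after seeing the values. Named list genes are the up to 3 largest called changes per direction. Hes1, Notch2, Jag1, Klf7, Krt19, Krt7, Cftr, Sctr, Tspan8, Bicc1 and Slc10a2 were picked after their values were seen. Promoters came from RefSeq. Positions came from GENCODE M21. Other filters, pseudocounts, covariates and left-out livers were tried as alternatives.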

Additional observations from a re-analysis of the deposited data

Results flagged for a closer look

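Onecut1 in the KO livers had 1 liver far from the others. KO male replicate 3 was at 25.2 TPM, the next KO liver at 7.58 TPM and the lowest at 3.50 TPM, so the gap to the nearest liver was 0.812 of the range of the 6, above Dixon's critical value of 0.625. This ratio was taken on TPM over both sexes, not on the log2 scale of the fits, and it depends on that scale. Chance flags about 1 in 20 groups where values spread normally, which was not tested here, and 16 groups were examined. The same liver had the highest Arntl (23.6 TPM) and the highest Onecut2 (16.6 TPM) of the 12, and a Dbp level of 1.31 TPM. Their part in its Onecut1 level was not tested.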

How the results depend on the processing

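Klf6 and Sox9 over both sexes kept their direction and call in every alternative run, from 2.09 to 3.12 and from 0.76 to 1.87. Rescaling gave Sox4 0.34, Onecut1 -1.33, Tbx3 -0.62, Ehf 0.10 and Onecut2 -0.39, the last in the reversed direction. Dbp as a covariate gave Sox4 0.40, and 0.13 with rescaling. Leaving out 1 liver in turn gave Onecut1 -1.32 to -0.67, Ehf 0.15 to 0.27, Sox4 0.49 to 0.68, Onecut2 -0.10 to 0.10 and Tbx3 -0.39 to -0.13. With rescaling added, a choice made after seeing the data, it gave Sox4 0.27 to 0.41 (never called), Onecut1 -1.67 to -1.05, Onecut2 -0.47 to -0.33 (called in 6 of 12 fits) and Tbx3 -0.79 to -0.50 (called in 2 of 12). The genes called in males numbered 5663 as deposited and 2937 after rescaling. The comparison of the sexes in WT called 705 genes, 399 with only the groups compared, 409 with the covariate for WT female replicate 3 and KO female replicate 1 and 291 to 1698 when 1 liver was left out, the most without WT male replicate 3, whose Dbp, at 206 TPM, lay within the range of the WT females. The interaction called 112 genes, 75 to 176 when 1 liver was left out (176 without WT male replicate 3), and the sexes in KO 10, with 6 to 10 (6 without KO male replicate 2). The female calls of Sox4 and Onecut1 lay near the threshold, and Sox4 lost its call in the fits with another pseudocount, filter or scale and in most of those that left out 1 liver. No paired analysis was possible because the replicate numbers only follow the order of the samples. Sox4 in WT rested on 22 to 83 reads per library and Ehf on 7 to 37, and the part of counting error in their spread was not tested.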
